A study of Mus musculus with 6 samples.

Results

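Genes that define other cell lineages were examined for Arid3a occupancy in mouse vascular smooth muscle cells. The set held 45 of the 21887 protein-coding genes of the RefSeq gene table (GRCm38.p6, the assembly of mm10). It comprised 11 lymphoid, 15 myeloid, 8 neural and 6 germline genes, and 5 genes of liver, pancreas and heart. All are textbook markers of cells outside the vessel's muscle layer and were taken as inactive in smooth muscle, although their expression in these cells was not analysed here. A library was counted as having a peak at a gene when a deposited peak overlapped the gene body, or the 1 kb beyond either end, by at least 1 bp.

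The data were CUT&Tag profiles, in which an antibody tethers a transposase to a chromatin protein and the DNA cut around it is sequenced. The cells were purchased primary mouse vascular smooth muscle cells transfected with siRNA. The 3 libraries labelled NC were made from cells that received the negative control. The 3 libraries labelled as siRNA were made from cells that received si-Arid3a#1, si-Arid3a#2 or si-Arid3a#3, so each siRNA against Arid3a was used in 1 library. The labels describe an angiotensin II model but give no angiotensin II exposure per library, and they do not say whether libraries came from separate cultures. The p-values below thus reflect the spread among these libraries alone, and that spread may be technical. Under the siRNA label it also includes any difference between the siRNAs, which cannot be told apart from a difference between libraries. No library without the Arid3a antibody was used, so the background of every peak value is the local one of the same library.

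Several features of the libraries bear on all that follows. Each of the 6 lists names its peaks after the opposite group, so libraries are described by their sample label, and a direction between groups holds for those labels and would be inverted if the peak names were the correct ones. Counts over all 6 libraries do not depend on this. The lists held 43834 to 51682 peaks. Background coverage was taken as the most common local background, in fragments, solved at the peaks of a list. It was 0.621 to 0.673 in the NC-labelled libraries and 0.475 to 0.538 in the siRNA-labelled ones, so group and coverage cannot be told apart. Between siRNA-labelled libraries 2 and 3, the summit fragments of the 1290 regions with at least 100 fragments differed by a chi-square of 0.820 per region, less than the sampling noise, against 1.51 and 1.39 for the pairs with library 1. The pairs of NC-labelled libraries gave 0.782 to 0.911, and the share of identical summits was 5.79% for siRNA-labelled libraries 2 and 3 within a range of 5.16% to 6.30% over all pairs. Libraries 2 and 3 of the siRNA label, although made with different siRNAs, were therefore also counted as 1 sample in a mean ± SD given beside that of 3 libraries. The NC-labelled libraries, of which no pair stood apart, were kept as 3.

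Arid3a is a DNA-binding protein with an AT-rich interaction domain (ARID), and its family also includes subunits of chromatin remodelling complexes. It is best known in B cells, where it binds AT-rich DNA around the immunoglobulin heavy chain locus. Lineage genes that are inactive in a given cell type commonly lie in closed chromatin, and many with CpG-rich promoters are held by Polycomb complexes. CpG-rich promoters serve mostly housekeeping and developmental genes, and CpG-poor promoters mostly tissue-restricted ones.

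The promoters of 6 members show the sequences over which peaks were present or absent. Each line gives the 250 bases before the transcription start, 5′ to 3′ on the gene's strand, from RefSeq (GRCm38.p6), with CpG dinucleotides in capitals. Promoter windows were available for 34 of the 45 members, and Cd14, Spi1 and Csf1r were among those without one. Of the 34, Syn1 (chrX:20920919-20921168, minus strand) and Cd68 (chr11:69666171-69666420, minus strand) are those with a peak of all 6 libraries over the promoter. Ddx4 (chr13:112652311-112652560, minus strand) and Olig2 (chr16:91225300-91225549, plus strand) are shown because they are CpG-rich too and had no peak there in any library. Cd3e (chr9:45009612-45009861, minus strand) and Alb (chr5:90460620-90460869, plus strand) show CpG-poor promoters without a peak.
Syn1: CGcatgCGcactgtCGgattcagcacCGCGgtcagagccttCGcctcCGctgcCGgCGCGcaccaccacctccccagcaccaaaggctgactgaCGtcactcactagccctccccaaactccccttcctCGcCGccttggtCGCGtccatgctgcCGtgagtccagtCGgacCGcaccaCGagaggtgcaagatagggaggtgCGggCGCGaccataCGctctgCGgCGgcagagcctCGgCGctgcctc
Cd68: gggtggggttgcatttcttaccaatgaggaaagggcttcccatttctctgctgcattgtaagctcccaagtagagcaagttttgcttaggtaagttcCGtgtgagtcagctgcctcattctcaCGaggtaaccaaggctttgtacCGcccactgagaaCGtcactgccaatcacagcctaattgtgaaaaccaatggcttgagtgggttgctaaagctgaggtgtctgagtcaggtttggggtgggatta
Ddx4: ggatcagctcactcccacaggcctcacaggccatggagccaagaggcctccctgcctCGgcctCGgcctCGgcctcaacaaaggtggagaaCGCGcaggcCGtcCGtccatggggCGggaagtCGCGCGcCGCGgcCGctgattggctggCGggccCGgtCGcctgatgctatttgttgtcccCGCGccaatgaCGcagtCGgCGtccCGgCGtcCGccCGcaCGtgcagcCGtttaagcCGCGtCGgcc
Olig2: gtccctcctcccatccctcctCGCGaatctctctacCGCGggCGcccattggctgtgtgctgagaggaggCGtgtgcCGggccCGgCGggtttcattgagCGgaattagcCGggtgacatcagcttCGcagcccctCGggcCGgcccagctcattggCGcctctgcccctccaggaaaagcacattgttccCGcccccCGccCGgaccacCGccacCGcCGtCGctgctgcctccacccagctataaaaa
Cd3e: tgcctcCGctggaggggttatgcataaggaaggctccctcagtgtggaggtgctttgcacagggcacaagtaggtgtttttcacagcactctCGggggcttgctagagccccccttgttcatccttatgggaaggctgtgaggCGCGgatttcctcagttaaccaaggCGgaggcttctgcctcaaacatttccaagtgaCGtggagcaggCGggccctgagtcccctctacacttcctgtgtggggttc
Alb: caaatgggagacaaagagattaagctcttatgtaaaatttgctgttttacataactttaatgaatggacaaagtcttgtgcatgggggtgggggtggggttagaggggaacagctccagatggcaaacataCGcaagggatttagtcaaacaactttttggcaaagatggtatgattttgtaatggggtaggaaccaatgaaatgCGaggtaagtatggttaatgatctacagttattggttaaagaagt
The capitals number 27 CpG in Syn1, 31 in Ddx4 and 22 in Olig2, against 4 in Cd68, 7 in Cd3e and 2 in Alb.

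Peaks were less common at these genes than at protein-coding genes in general, but they were present at some of them. Of the 45 genes, 11 (24.4%) had a peak in all 6 libraries, where 55.7% of protein-coding genes did. No library had a peak at 22 of them (48.9%), against 31.1% of protein-coding genes, and 12 had a peak in 1 to 5 libraries. The 11 genes were Lck and Pax5 (lymphoid), Cd68, Csf1r, Cd14, Mrc1, Spi1 and Cx3cr1 (myeloid), and Syn1, Gfap and Rbfox3 (neural). Among genes with a peak in every library, the peaks of the libraries can still lie at different places. At Lck and Spi1 they did, and 9 members (20%) held 1 region in which all 6 libraries had a peak, against 54.3% of protein-coding genes. The list was chosen with earlier results of these data known, so these shares are descriptions and were given no test.

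By lineage, a peak in all 6 libraries was found at 6 of 15 myeloid genes, 3 of 8 neural genes and 2 of 11 lymphoid genes. None of the 6 germline genes and none of the 5 liver, pancreas and heart genes had one. Median gene length was 19.6 kb in the myeloid, 18.9 kb in the neural and 10.9 kb in the lymphoid list. It was 13.9 kb in the germline list and 1.84 kb in that of liver, pancreas and heart, so the counts are not matched for length. The members that had no peak in any library included the T-cell receptor complex genes Cd3e and Cd3g, the B-cell receptor genes Cd79a and Cd79b and the B-cell surface gene Ms4a1. They also included the myeloid genes Adgre1 (F4/80), Lyz2 (lysozyme), C1qb and C1qc (complement), the pan-leukocyte phosphatase gene Ptprc (CD45) and the T-cell coreceptor gene Cd8a. Among neural genes, Snap25, a synaptic SNARE protein gene, and the transcription factor genes Olig2, Neurod1 and Neurod2 had none. The germline genes Dazl, Sycp3, Prm1 and Tnp1, the apolipoprotein gene Apoa1 and the insulin genes Ins1 and Ins2 completed the 22. The lists hold only peaks with a deposited −log10 q of at least 1.30 to 1.32, so a gene without a peak may still carry fragments.

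**Figure D1:**
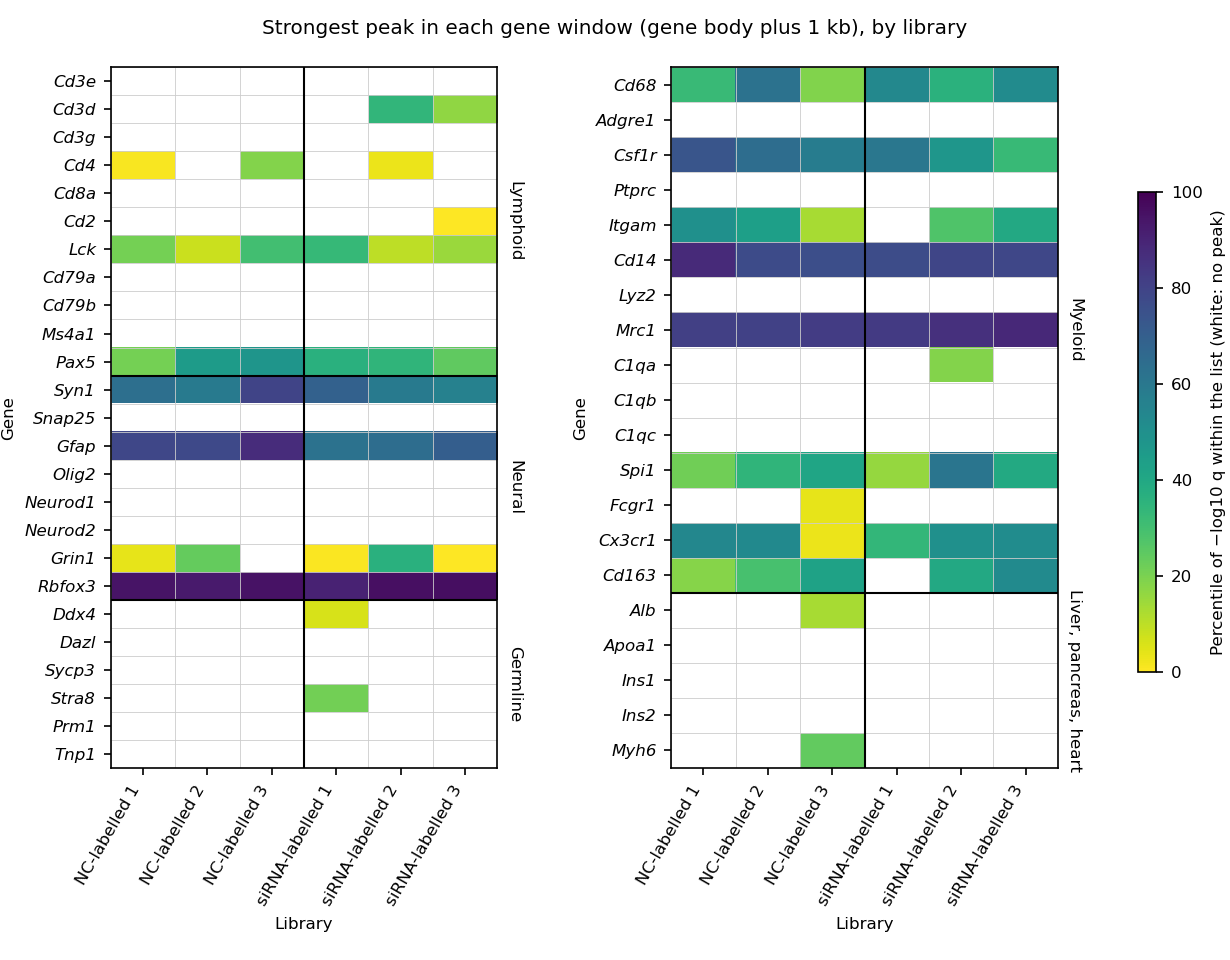
Peaks at each of the 45 genes (y axis, grouped by lineage) in each of the 6 libraries (x axis), with colour for the percentile of −log10 q, within the library's own list, of the strongest peak overlapping the gene body or 1 kb beyond either end, and white for no peak. The 11 genes coloured in every library include Rbfox3, Mrc1 and Cd14 at the dark end of the scale, and 22 genes are white throughout.

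Gene length matters for such counts, because a longer window can hold more peaks. Of the 15 members under 5 kb, 2 (13.3%) had a peak in all 6 libraries, where 24.9% of protein-coding genes of that length did. The gap was wider from 5 to 20 kb, where 2 of 14 members (14.3%) and 55.4% of genes had one. From 20 to 100 kb the values were 4 of 11 (36.4%) and 69.8%, and above 100 kb they were 3 of 5 (60%) and 76.2%. Members were below all genes in each of the 4 length classes, and the same held for members with 1 region shared by all 6 libraries (2 of 15 against 24.6%, 2 of 14 against 54.6%, 2 of 11 against 67.6% and 3 of 5 against 73.4%). The share without any peak was higher in members in 3 of the classes, at 80% against 66.0% under 5 kb, 50% against 28.4% from 5 to 20 kb and 40% against 12.4% above 100 kb. It was lower from 20 to 100 kb, where 1 of 11 members (9.09%) and 16.3% of genes had none. Ptprc spans 112.9 kb, Adgre1 124.9 kb and Snap25 69.0 kb, and all 3 lacked a peak in every library. Per length of window, the members held 0.777 regions shared by all 6 libraries per 100 kb (13 in 1674 kb), against 1.85 over all protein-coding genes. Counting only peaks within 1 kb of a gene end, 5 members (11.1%) had a peak in all 6 libraries, against 44.0% of genes, and 34 had none in any library, against 42.8% of genes. Those 5 were 4 myeloid genes and 1 neural gene.

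**Figure D2:**
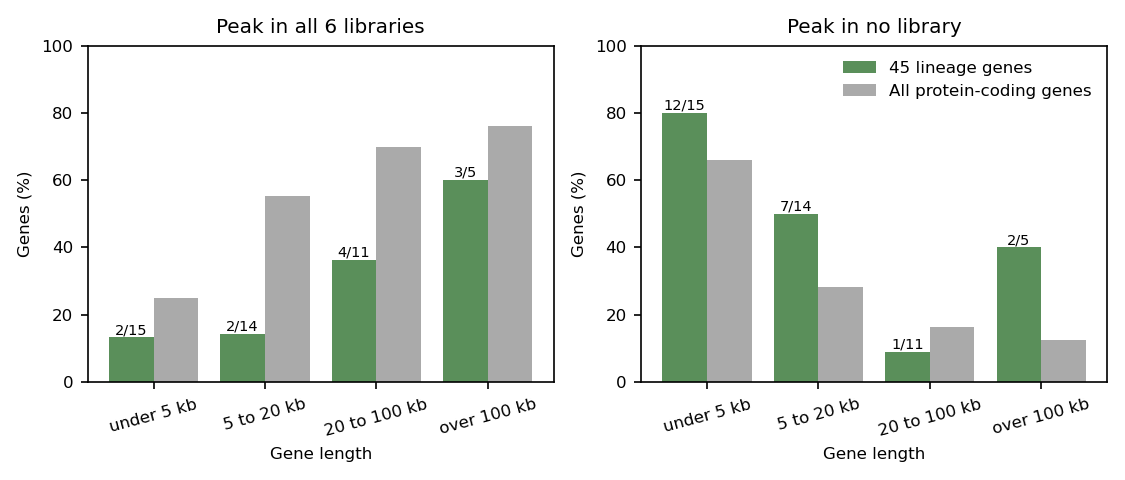
Percent of genes (y axis) with a peak in all 6 libraries (left) and in none (right), in 4 classes of gene length (x axis), for the 45 members (green, with counts above the bars) and all protein-coding genes (grey). On the left the members' bar is the lower one in each class, by the widest margin from 5 to 20 kb (14.3% and 55.4%); on the right it is the higher one except from 20 to 100 kb.

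The regions at member genes were also less reproducible. Of the 69 regions in member windows, 13 (18.8%) had a peak of all 6 libraries, against 40.6% of the regions in windows of all protein-coding genes. A single library gave 30 (43.5%) of them, against 28.7%. Rbfox3 alone held 18 of the 69 and 12 of the 30. Without it, 12 of 51 regions (23.5%) were shared by all 6 libraries and 18 (35.3%) came from a single library. The single-library peaks had 4 to 13 fragments at the summit with a median of 6, and the 13 shared regions had 7 to 72 with a median of 28 over their 78 values. Of the 13 shared regions, 4 had their summit within 1 kb of an end of the member itself. A further 8 lay more than 1 kb from any gene end, and 2 lay within 1 kb of an end of a protein-coding gene outside the set, 1 of which was also among the 4.

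The highest summit fragments and −log10 q at a member were those of Rbfox3, the gene of the neuronal nuclear antigen NeuN. Its shared region (chr11:118523531-118524489) had 72, 66 and 71 summit fragments under the NC label (libraries 1 to 3, in that order throughout) and 43, 64 and 72 under the siRNA label. The fold enrichment over local background, which is the authors' value (column 7), was 12.5, 11.7 and 12.8 against 10.7, 14.5 and 14.5. All 6 libraries were high here, and the groups overlapped. The authors' −log10 q (column 9) was 54.0, 47.9 and 53.9 against 30.5, 53.1 and 59.3, which placed the peak at the 90.4th to 96.5th percentile of its own list. Rbfox3 is 421.8 kb long, and the region lay inside it, 34171 bp from its nearest end and 34722 bp from the nearest end of another gene, Engase. It was the only 1 of 18 regions in the Rbfox3 window that all 6 libraries shared. Among members, only Mrc1 had a higher fold, in NC-labelled library 2 and siRNA-labelled library 1.

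Mrc1 encodes the mannose receptor CD206 of macrophages. Its shared region (chr2:14279134-14279617), 49967 bp downstream of the start, had 32, 30 and 32 fragments under the NC label and 26, 29 and 35 under the siRNA label. The fold was 11, 11.9 and 10.7 against 11.1, 13.1 and 13.7, and the −log10 q of 21.2 to 31.2 lay at the 80.6th to 88.6th percentile. Like that of Rbfox3, it was the only region shared by all 6 libraries in a gene of more than 100 kb.

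Cd14 encodes the monocyte coreceptor for lipopolysaccharide, and it is only 1.75 kb long. A region over most of the gene (chr18:36725381-36726902) had 59, 43 and 39 fragments under the NC label and 34, 36 and 39 under the siRNA label, with its summit 322 bp from a gene end. The fold was 8.55, 7.08 and 6.55 against 6.63, 7.49 and 7.00, and the −log10 q was 34.4, 22.0 and 18.8 against 16.6, 19.6 and 19.9. NC-labelled library 1 was highest, and the other 5 libraries lay close together. The nearest end of another protein-coding gene, Tmco6, was 8526 bp away.

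Gfap encodes the intermediate filament protein of astrocytes. Its shared region (chr11:102889706-102890507), 7174 bp downstream of the start, had 42, 43 and 50 fragments under the NC label and 24, 25 and 29 under the siRNA label. The fold was 7.40, 7.36 and 8.87 against 5.80, 6.23 and 6.69, and the −log10 q was 22.4, 22.8 and 30.4 against 10.7, 12.1 and 14.7. The groups did not overlap in any of the 3 measures before scaling for coverage, which was also higher in every NC-labelled library. A second region of Gfap (chr11:102894687-102895212) had 22, 19 and 18 fragments against 14 and 14 in siRNA-labelled libraries 1 and 2, and no peak in library 3.

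Cd68 encodes a lysosomal glycoprotein of macrophages, and its 1.96 kb gene was flanked by a shared region on either side. The region at the start (chr11:69665917-69666564), with its summit 111 bp upstream, had 34, 50 and 29 fragments under the NC label and 30, 28 and 35 under the siRNA label. The fold was 2.50 to 3.94, over a local background of 7.79 to 11.9 fragments. This summit also lay 655 bp from the nearest end of Eif4a1, a translation initiation factor gene whose own strongest peak had 72 to 112 fragments. The region past the downstream end (chr11:69663761-69664558) had 31, 26 and 29 fragments against 33, 26 and 35. Its fold was 2.19 to 3.83, and its −log10 q ran from 2.16 to 8.62.

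Csf1r encodes the receptor that maintains macrophages. Its shared region (chr18:61127471-61128142) had 19, 28 and 23 fragments under the NC label and 20, 16 and 15 under the siRNA label, at a fold of 4.48 to 6.67. It lay 3247 bp from the gene's own end and 3385 bp from an end of Hmgxb3. A second region (chr18:61106773-61107196) had 34, 22 and 18 fragments against 15 and 14, with no peak in siRNA-labelled library 2. The shared region ranked between the percentiles 32.8 and 64.3 of the lists.

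Cx3cr1 encodes the fractalkine receptor of monocytes and microglia. Its shared region (chr9:120049387-120050031) had 18, 19 and 7 fragments under the NC label and 10, 14 and 16 under the siRNA label. NC-labelled library 3 was the lowest, at the 2.87th percentile of its list. Pax5, the gene of the B-lineage transcription factor, had a shared region 65464 bp downstream of its start (chr4:44644999-44645954). It held 10, 14 and 15 fragments against 11, 8 and 10, at a fold of 3.90 to 6.11. Neither region reached 20 fragments in any library.

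Syn1 encodes synapsin I, a protein of synaptic vesicles, and it held 4 of the 13 shared regions within its 60.4 kb. The region at its start (chrX:20920638-20921353), over the promoter printed above, had its summit 6 bp upstream of the start. It had 13, 12 and 12 fragments under the NC label and 12, 11 and 12 under the siRNA label, at a fold of 5.11 to 6.13 and a −log10 q of 5.20 to 7.14. Before scaling, the values differed little between the 6 libraries, and the peak ranked at the 29.4th to 44.6th percentile. A region 5685 bp downstream (chrX:20914992-20915747) had 15, 19 and 15 fragments against 17, 8 and 8, so siRNA-labelled library 1 stood with the NC-labelled ones. Of the 4, the region with the highest fragment count (chrX:20869116-20870279) had 37, 39 and 49 fragments against 25, 28 and 28. Its summit lay 267 bp from an end of Timp1, a metalloproteinase inhibitor gene that lies within the span of Syn1. A neighbouring region (chrX:20867259-20867674), 2758 bp from Timp1, had 26, 34 and 31 fragments against 24, 29 and 30. Both regions near Timp1 thus carried more fragments than the region at the Syn1 start in every library, over a higher local background. Their fold was 4.29 to 6.05 at the region 267 bp from Timp1 and 3.24 to 4.62 at its neighbour. These folds were below that at the Syn1 start, except at the former region in NC-labelled library 3. The highest fold of the 4 regions, 8.81, was 5685 bp downstream of the start in siRNA-labelled library 1.

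**Figure D3:**
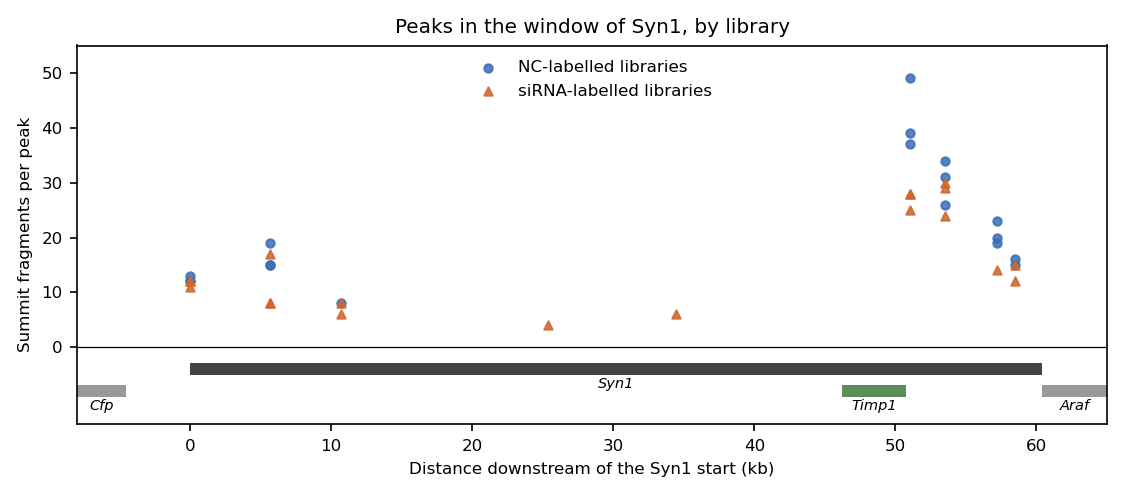
Map of the Syn1 window, with distance downstream of the Syn1 start (x axis, kb) and the summit fragments of each peak (y axis), NC-labelled and siRNA-labelled libraries in different colours. The low cluster at the start has 11 to 13 fragments in all 6 libraries, and the tallest points lie near Timp1.

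Lck encodes the T-cell receptor's proximal kinase, and the peaks of the libraries split there by group. A region of 3 siRNA-labelled libraries (chr4:129555579-129556073) had 13, 9 and 10 fragments and no peak in any NC-labelled library. The next region, 226 bp further on (chr4:129556300-129557021), had 13, 10 and 13 fragments in the NC-labelled libraries and no peak in any siRNA-labelled one. Their summits were 781 bp apart, and both regions lay inside Lck, 2515 and 1734 bp downstream of the nearest of its listed starts. That start (chr4:129558372) lies inside the gene, and the outer start, at chr4:129573641, is farther from both regions. Over all 79295 regions, 0.608% had peaks in the 3 NC-labelled libraries alone and 0.342% in the 3 siRNA-labelled libraries alone. Of the 69 member regions, 1 was of each kind, both at Lck, and 12 of 21887 protein-coding genes (0.0548%) held both kinds in their window. The pair was singled out after its values were seen, the fragments were few, and no test was made of it.

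Spi1, the gene of the myeloid transcription factor PU.1, had a peak in every library but no region shared by more than 4. A region near 1 end (chr2:91082915-91083655) had 14 and 13 fragments in NC-labelled libraries 2 and 3 and 13 and 13 in siRNA-labelled libraries 2 and 3. A region near the other end (chr2:91114954-91115571) had 13 and 15 in NC-labelled libraries 1 and 3 and 9 and 18 in siRNA-labelled libraries 1 and 2. Each of these regions had peaks of 2 libraries of either label. The other 2 regions of Spi1 had peaks in fewer libraries, namely NC-labelled libraries 1 and 3 and siRNA-labelled library 3 (9, 10 and 10 fragments, chr2:91087956-91088361) and NC-labelled libraries 1 and 3 alone (11 and 11 fragments, chr2:91112183-91112943).

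At 3 members 5 libraries had a peak. Itgam, the gene of the integrin CD11b, had 12, 11 and 6 fragments under the NC label and 7 and 9 in siRNA-labelled libraries 2 and 3 (chr7:128088986-128089398). Cd163, the haemoglobin scavenger receptor gene, had 2 regions of 4 libraries each, and siRNA-labelled library 1 had a peak at neither gene. Grin1, an NMDA receptor subunit gene, lacked a peak in NC-labelled library 3 and had 4 to 10 fragments elsewhere (chr2:25305124-25305660). Cd4, the gene of the T-helper coreceptor, had a peak in 2 NC-labelled libraries and 1 siRNA-labelled library, with the summit outside Cd4 and 84 bp from an end of Gpr162. Cd3d, a T-cell receptor complex gene, had peaks of 8 and 6 fragments in siRNA-labelled libraries 2 and 3 and in no NC-labelled library (chr9:44986633-44986965).

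The remaining 7 members had a peak in 1 library each. Ddx4 (a germ-cell helicase) and Stra8 (a meiosis gene) had theirs in siRNA-labelled library 1, so that was the only library with a peak at any of the 6 germline members. Alb (serum albumin), Myh6 (cardiac myosin) and Fcgr1 (an Fc receptor) had theirs in NC-labelled library 3, Cd2 in siRNA-labelled library 3 and C1qa in siRNA-labelled library 2. Each had 4 to 10 fragments.

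Where members had a peak in all 6 libraries, their strongest peak was lower than at other such genes. Over the 11 members the median fold was 6.74, 6.67 and 6.05 under the NC label and 5.80, 6.23 and 5.41 under the siRNA label. Over the 12196 protein-coding genes with a peak in all 6 libraries it was 8.65, 9.02 and 8.73, and 8.32, 9.09 and 9.09. The median −log10 q of the 11 was 13.5, 13.6 and 10.7, and 10.2, 10.2 and 8.62, against 24.5, 26.7 and 23.7, and 18.1, 21.9 and 23.4. These medians are of the genes that had a peak and say nothing of the other 34. Rbfox3 and Mrc1 went the other way, with folds above the median of all such genes in each library.

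Promoter sequence was not used to choose the genes. RefSeq promoter windows, from 250 bases before to 50 after the start, were matched for 34 of the 45 members (36 windows), and 21263 windows were matched in all. A window was called CpG-rich at a GC share of at least 50% and an observed over expected CpG of at least 0.6. Of all CpG-rich windows 67.8% were overlapped by a peak in all 6 libraries, and of the others 14.4%. Among members, 9 windows (25.0%) were CpG-rich, against 45.1% of all windows, so the members are fewer in the class where peaks are common.

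Within the CpG-rich class, peaks over member promoters were few. Of the 9 CpG-rich windows, that of Syn1 alone had a peak in all 6 libraries. The other 8, of Pax5, Olig2, Neurod1, Neurod2, Grin1, Ddx4, Dazl and Sycp3, had no peak in any library, where 16.8% of all CpG-rich windows had none. The Ddx4 window, with a GC share of 72.0% and an observed over expected CpG of 0.978, was richer than that of Syn1 (68.3% and 0.957) by both measures. Grin1 had the highest observed over expected CpG of the members (1.20), and its window was likewise without a peak. Of the 27 windows that were not CpG-rich, that of Cd68 (47.7% and 0.240) had a peak in all 6 libraries and the other 26 had none in any library, against 75.3% of all such windows.

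**Figure D4:**
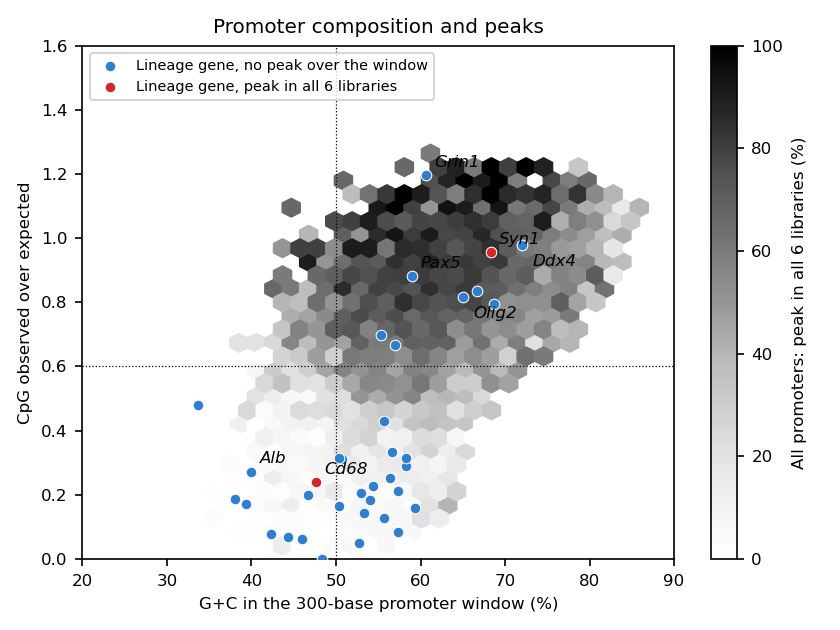
Promoter windows of the members (points) by GC share (x axis, percent) and observed over expected CpG (y axis), red where all 6 libraries had a peak over the window and blue where none did, with dotted lines at the limits of the CpG-rich class. Hexagons show all promoter windows, shaded by the percent with a peak in all 6 libraries; Syn1 and Cd68 are the red points, and 8 points in the CpG-rich corner, Ddx4 and Olig2 among them, are blue on a dark ground.

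An AT-rich motif was looked for in the same windows because of the known preference of Arid3a. The letters ATTAAA, on either strand (as ATTAAA or TTTAAT), were in 5 of the 36 member windows (13.9%), those of Cd8a, Ptprc, Cd163, Neurod2 and Alb, against 11.7% of all windows. None of the 5 had a peak, and the Syn1 and Cd68 windows did not hold the letters. Over all windows the motif was in 4.88% of CpG-rich and 17.4% of the other ones, so it was more common in the class where peaks were fewer. A match describes letters only and shows no binding site.

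Further lineage genes, in lists that do not overlap the 45, gave similar shares when pooled, but not in each lineage. A peak in all 6 libraries was found at 15 of 79 (19.0%), and no peak in any library at 43 (54.4%). By lineage, they were 3 of 16 lymphoid, 2 of 15 myeloid, 5 of 16 neural, 3 of 16 germline and 2 of 16 liver, pancreas and heart genes. The myeloid share was thus below that of the members (6 of 15). Those of germline and of liver, pancreas and heart were above (0 of 6 and 0 of 5 members). The highest was Mbp, the myelin basic protein gene, with 138, 134 and 114 fragments under the NC label and 96, 111 and 116 under the siRNA label, more than at any member. Apoa2, a liver apolipoprotein gene, had 53, 54 and 45 against 36, 60 and 41, whereas the member Apoa1 had no peak. The germline genes Hormad1 and Tdrd1 had peaks in all 6 libraries at a gene end, which no germline member had. Of 12 CpG-rich windows of these genes, 1 (8.33%), that of the neuronal gene Map2 (named after its value was seen), had a peak in all 6 libraries and 10 (83.3%) had none.

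For the labelled cell type, peaks were counted at smooth muscle contractile genes. Of 16, 13 (81.2%) had a peak in all 6 libraries, against 55.7% of all protein-coding genes and 69.8% of those from 20 to 100 kb, the class that holds the list's median length of 25.2 kb. The count therefore checks the label only weakly. The 13 included Acta2, Tagln and Myh11, whereas Cnn1 had one in 4 libraries, Actg2 in 2 and Des in none. Housekeeping genes had a peak in all 6 libraries in 15 of 16 cases (93.8%). All 12 of the housekeeping promoter windows matched had a peak in every library, against 2 of 36 among the members and 38.5% of all windows. Of the 12 housekeeping windows 11 were CpG-rich, against 9 of the 36 member windows, so these sets differ in composition. Peaks are not expression, and in bulk chromatin a peak in few cells and a weak peak in many cannot be told apart.

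The siRNA comparison asks whether occupancy at these genes differs when Arid3a is targeted. The number of members with a peak was 15, 14 and 17 under the NC label and 14, 17 and 16 under the siRNA label. The means were 15.3 ± 1.53 (SD, n = 3) under the NC label and 15.7 ± 1.53 (SD, n = 3) under the siRNA label. With siRNA-labelled libraries 2 and 3 as 1 sample the latter was 15.2 ± 1.77 (SD, n = 2), so the order of the means turned. The difference was less than the spread between libraries (NC minus siRNA over 3 libraries each, −0.333; two-sided exact permutation test, p = 1, smallest possible 0.1). No member had a peak in every library of 1 label and in none with the opposite label, which 0.128% of genes had towards the NC label and 0.0914% towards the siRNA label. Cd3d was the only member whose libraries differed by 2 or more between the groups, towards the siRNA label, as did 1.07% of protein-coding genes, and none differed that far towards the NC label, as 1.15% of genes did.

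Signal at the 13 shared regions was compared as summit fragments scaled to the median of all shared regions. In limma with Benjamini-Hochberg adjustment over 29602 regions, 63 (0.213%) were called at 0.05, of which 36 (0.122%) were higher and 27 (0.0912%) lower under the NC label. None of the 13 was among them, and 2 had an unadjusted p under 0.05 in limma, Gfap and the downstream region of Cd68, where 11.3% of all regions had. When libraries were scaled by background coverage instead, 78 regions (0.263%) were called, of which 8 (0.027%) were higher and 70 (0.236%) lower under the NC label, and again no member region was. That scaling moved the median of all regions by −0.10 on the log2 scale.

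Gfap had the largest difference of the 13 regions. Its scaled fragments were 37.7, 36.9 and 47.2 under the NC label and 29.1, 27.3 and 29.4 under the siRNA label, without overlap. The log2 difference, NC minus siRNA, was 0.50 (SE 0.17, 95% interval 0.15 to 0.84), with a limma Benjamini-Hochberg adjusted p of 0.221 over all regions. At the downstream region of Cd68 the scaled values were 27.8, 22.3 and 27.4 against 40.1, 28.4 and 35.5, a log2 difference of −0.42 (SE 0.19, limma adjusted p 0.380). These regions differed in opposite directions, and neither difference passed the test.

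The other regions gave smaller differences relative to their errors. The region of Syn1 at Timp1 differed by 0.32 (limma adjusted p 0.505), with scaled values of 33.2, 33.5 and 46.3 against 30.3, 30.6 and 28.4. The Syn1 region 5685 bp downstream of the start differed by 0.36 (limma adjusted p 0.660), with scaled values of 13.4, 16.3 and 14.2 against 20.6, 8.75 and 8.11. It was the least steady of the Syn1 regions, with a log2 difference of 0.79 without siRNA-labelled library 1 (limma adjusted p 0.155) and of 0.17 and 0.12 without libraries 2 and 3 of that label. The Syn1 start region differed by −0.22 (adjusted p 0.809, limma) and the Mrc1 region by −0.22 (adjusted p 0.688, limma). For Rbfox3 the log2 difference was −0.04 with an interval of −0.32 to 0.24, and for Cd14 0.05 with an interval of −0.28 to 0.38. With the median scaling, and for the spread among these libraries alone, neither interval reached a change of 1 log2 unit in either direction. Smaller changes are not excluded, and the limits moved with the setting. With libraries scaled by background coverage, they were −0.44 to 0.16 for Rbfox3 and −0.38 to 0.30 for Cd14. Pax5 and Cx3cr1, with few fragments, had wide intervals of −0.42 to 0.66 and −0.81 to 0.28. The median over the 13 was −0.04, against 0.00 over all regions. The scaling itself sets the latter, so it says nothing of an overall change. With libraries scaled by background coverage, the medians were −0.14 over the 13 and −0.10 over all regions. With the median scaling, values of the groups did not overlap in 5 of the 13, against 15.8% of all regions. The 5 were at Gfap, Mrc1, the downstream region of Cd68, and the Syn1 regions at Timp1 and at the start.

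**Figure D5:**
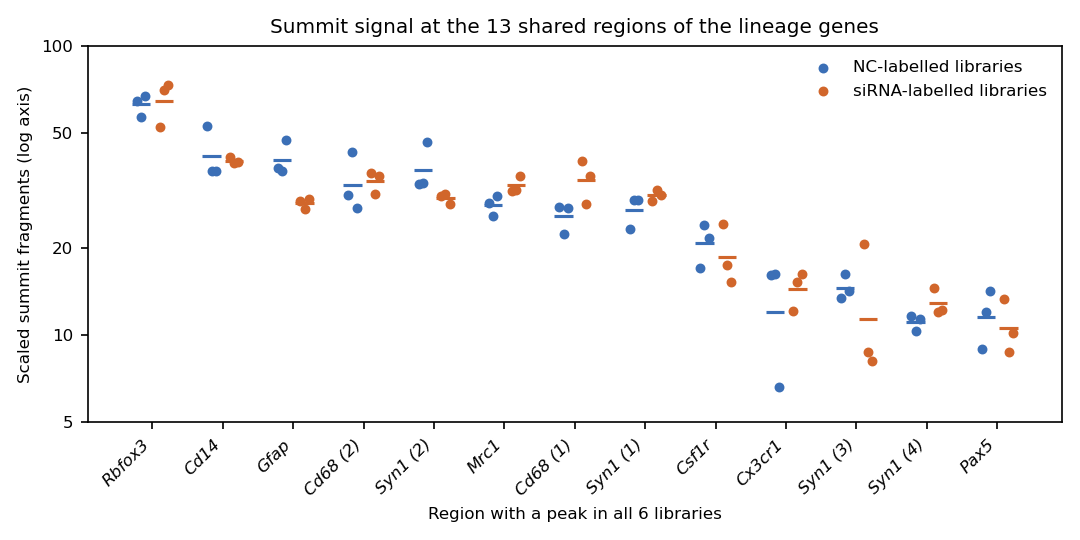
Scaled summit fragments (y axis, log scale) at the 13 shared member regions (x axis) in the 3 NC-labelled and 3 siRNA-labelled libraries, each point 1 library and each bar the geometric mean of a label; the regions of Syn1 are numbered by coordinate, so (4) is at its start and (2) at Timp1, and those of Cd68 likewise, so (2) is at its start. Gfap is the region with the widest gap between the groups (36.9 to 47.2 and 27.3 to 29.4), and the points of Rbfox3 and Cd14 overlap.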

How the data were processed

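CUT&Tag was profiled in 6 libraries, 1 deposited peak list each, with peaks called per library. Per the submitters' processing notes, Bowtie2, Picard, MACS2 and mm10 were used, with versions and settings that were not given in the sources used here. For each peak the authors deposited a fold enrichment (a ratio to local background) and −log10 p and −log10 q values. They also deposited a score, which is the −log10 q multiplied up and cut down to a whole number. Total reads were not used here.

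Summit fragments and local background were solved from the deposited fold (pseudocount 1) and −log10 p within a relative tolerance of 0.002, for 100.0% of peaks. Of 5000 simulated summits, 100.0% were returned. Neither summits of 4 fragments nor backgrounds as low as 0.475 and 0.482 (siRNA-labelled libraries 1 and 2) were simulated. The weakest peaks were thus not covered. Median summits of 18 to 20 fragments under the NC label and 16 under the siRNA label leave a large counting error. Peaks overlapping by at least 1 bp formed union regions. Log2 summit fragments, scaled by the median over regions, were fitted in limma 3.58.1 (R 4.3.3) with Benjamini-Hochberg adjustment, threshold 0.05. Counts per library were compared by exact permutation (scipy 1.17.1). Gene positions and promoters came from RefSeq; exons and peak sequences were not analysed here.

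The members and lists were chosen with earlier results of these data known. Every member is accounted for, those with a region shared by all 6 libraries with each library's values; of each comparison list up to 3 genes with the highest smallest percentile of −log10 q could be named, and others named only by their number of libraries. Same-numbered libraries of the groups did not deviate together (r of 0.04, 0.03 and −0.02), so numbers were not taken as pairs. Alternatives were windows, stricter peaks, equal peak numbers, another scaling, a replicate block and leaving out each library.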

Additional observations from a re-analysis of the deposited data

How the results depend on the processing

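Of 174 values recomputed under alternatives, 150 kept their direction and side of the threshold or stayed within 1.5 times. The 11 members with a peak in all 6 libraries became 5 with gene ends only and 6 with a −log10 q of at least 5 (49.9% of all genes). They were 14 with 5 kb flanks (60.1% of all genes) and 9 with equal peak numbers (54.3%), 9 when 1 region had to hold all 6 libraries (54.3%; chosen after seeing the data), and 11 to 13 when 1 library was left out. The group difference of −0.333 members turned to 0.333 without NC-labelled library 2 or siRNA-labelled library 2 and to 0.0833 with siRNA-labelled libraries 2 and 3 averaged (exact permutation p = 1), within −1.17 to 0.333 over single left-out libraries. With the replicate block, the difference was −0.333 (exact permutation p = 1, smallest 0.25), and called regions rose from 63 to 132; not every library correlated best with its own number. Called regions were 32 with libraries 2 and 3 averaged and 10 to 371 with 1 library left out: 10, 17 and 12 without NC-labelled libraries 1, 2 and 3, 371 and 14 without siRNA-labelled libraries 1 and 2. The causes were not tested. None of the 125 member-region values under other settings was called in limma, and the smallest adjusted p was 0.155, at the Syn1 region 5685 bp downstream of the start without siRNA-labelled library 1. Leaving out Rbfox3 was also chosen after seeing the data.

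Small region differences turned sign. Cd14 became −0.044 with background scaling and −0.12 without NC-labelled library 1 (leaving out 1 library, −0.12 to 0.14). The Cd68 start region became 0.0095, 0.088 and 0.00037 without NC-labelled libraries 1 and 3 and siRNA-labelled library 1 (−0.24 to 0.088). Rbfox3 became 0.031, 0.019 and 0.050 without NC-labelled library 2 and siRNA-labelled libraries 2 and 3, and 0.036 with the latter averaged (−0.19 to 0.050). Pax5 became −0.026 and −0.016 without NC-labelled library 3 and siRNA-labelled library 2 (−0.026 to 0.30), and Cx3cr1 0.17 without NC-labelled library 3 (−0.48 to 0.17).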
